A study of Homo sapiens with 16 samples.

Results

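The transcripts of 10 keratins that mark the layers of the urothelium were followed in 4 bladder cancer cell lines. The members were KRT5, KRT6A, KRT14 and KRT17 of basal cells, KRT13 of intermediate cells and of squamous differentiation, and KRT7, KRT8, KRT18, KRT19 and KRT20 of luminal and simple epithelium. They were taken by gene symbol, and all 10 were found among the 35993 genes of the count table. All 10 passed the filter on low counts that left 21297 genes for testing, but KRT5, KRT6A, KRT13 and KRT14 had at most 3 counts in every library of 253J and J82 and passed through RT112, where each had its highest counts.

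Keratins are the intermediate filament proteins of epithelial cells. A type II keratin pairs with a type I keratin to build each filament, and a keratin without a partner is unstable. In normal urothelium, basal cells on the basement membrane carry KRT5, with KRT14 in the least mature cells, the layers above lose them and gain KRT13, and the umbrella cells at the lumen carry KRT20. KRT7, KRT8, KRT18 and KRT19 are simple-epithelial keratins found through much of the urothelium, and the balance of basal and luminal keratins is used to subtype bladder tumors.

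Total RNA was sequenced from TCCSUP, RT112, J82 and 253J, human bladder cancer lines in long-standing use that carry the genotype label WT, after 48 h with CM-1758, a histone deacetylase inhibitor, or with 0.01% DMSO as vehicle control. Each of the 8 groups held 2 libraries, described as independent biological replicates, which gives 16 libraries. Each line received its own IC50 of CM-1758 and TCCSUP was grown in another medium than the rest, so that cell line, dose and medium cannot be told apart when lines are compared. The labels call the control a vehicle control and the study also calls it untreated, and it is called control here.

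The total count ran from 22506431 to 32537104 per library, and Pearson's r of log2 CPM across genes was 0.983 to 0.991 between libraries of the same group. The J82 control libraries differed most from each other, with a chi-square per degree of freedom of 74.4 against 11.8 to 50.3 in the other 7 groups. CPM is a gene's count scaled to the TMM-normalized library size, and is not corrected for gene length, and a count of 3 or fewer in a library was taken as the floor. Epithelial marker genes (EPCAM, CDH1, ESRP1, ESRP2, CLDN4 and CLDN7) summed to 1408 and 1488 CPM in the control libraries of RT112, to 172 and 192 CPM in 253J, to 29.2 and 37.6 CPM in TCCSUP and to 8.69 and 9.12 CPM in J82. ESRP1 was at 0 in the control libraries of 253J and J82, and CLDN7 in those of 253J. UPK3A, an umbrella cell uroplakin, was at 0 in the control libraries of all 4 lines, and UPK2 was at 0 in the control libraries of 253J, J82 and TCCSUP. In cultures a lower share of cells expressing a gene and less RNA per cell cannot be told apart.

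Of the members, 3 had a promoter in the RefSeq table used here (GRCh38.p14). The 250 bases before the start of KRT20, which rose with CM-1758 in all 4 lines, and of KRT5, which fell in RT112, are shown as a pair that moved in opposite directions in RT112. Both genes lie on the minus strand and the sequences read 5′ to 3′ along that strand, with capitals marking ATAAAA and CACCC on either strand.
KRT20, chr17:40885243-40885492: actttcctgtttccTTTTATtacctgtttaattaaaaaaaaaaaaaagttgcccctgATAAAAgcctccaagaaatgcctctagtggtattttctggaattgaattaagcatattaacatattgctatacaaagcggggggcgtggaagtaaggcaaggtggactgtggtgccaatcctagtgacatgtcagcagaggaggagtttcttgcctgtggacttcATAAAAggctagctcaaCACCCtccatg
KRT5, chr12:52520395-52520644: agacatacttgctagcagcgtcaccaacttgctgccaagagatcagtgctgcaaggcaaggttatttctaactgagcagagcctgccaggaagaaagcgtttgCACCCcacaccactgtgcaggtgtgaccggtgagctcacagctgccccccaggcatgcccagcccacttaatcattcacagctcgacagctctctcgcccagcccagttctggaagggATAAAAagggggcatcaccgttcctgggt

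The KRT20 stretch had 41.2% G and C and the KRT5 stretch 56.0%. Both held the TATA-like letters ATAAAA on the coding strand close to the start, with the first base at -28 in KRT20 and at -29 in KRT5. ATAAAA began between -40 and -20 on that strand in 1.76% of 35116 RefSeq promoters, and this motif was chosen after the sequences had been read. Each also held CACCC, a motif bound by KLF factors, at -11 in KRT20 and at -147 in KRT5, which 59.9% of all promoters hold on either strand in the 300 bases of the table. TATAAA (in 11.5% of promoters), the AP-1 letters TGANTCA (7.71%) and the GC box GGGCGG (45.0%) were in neither window. A match of letters is a description and not a binding site.

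In the control libraries, the profile of the 10 members set RT112 apart from the other lines. RT112 held counts of all 10 members, including every basal keratin, KRT13 and KRT20. Among the members, J82 held KRT17 and the simple keratins KRT7, KRT8, KRT18 and KRT19. The members in 253J and TCCSUP were mainly KRT18, KRT19 and KRT8, with KRT7 at 4.53 to 6.17 CPM. Outside the members, the hair keratin KRT81 was at 270 and 249 CPM in TCCSUP control. In the F test over the control groups all 10 members differed between lines (edgeR quasi-likelihood, Benjamini-Hochberg adjusted p from 1.26e-12 to 9.87e-05), where 78.8% of all tested genes did. For the 4 members that entered the test through RT112, and for KRT20, which was at 0 in the control libraries of the other lines, that count adds nothing.

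**Figure D1:**
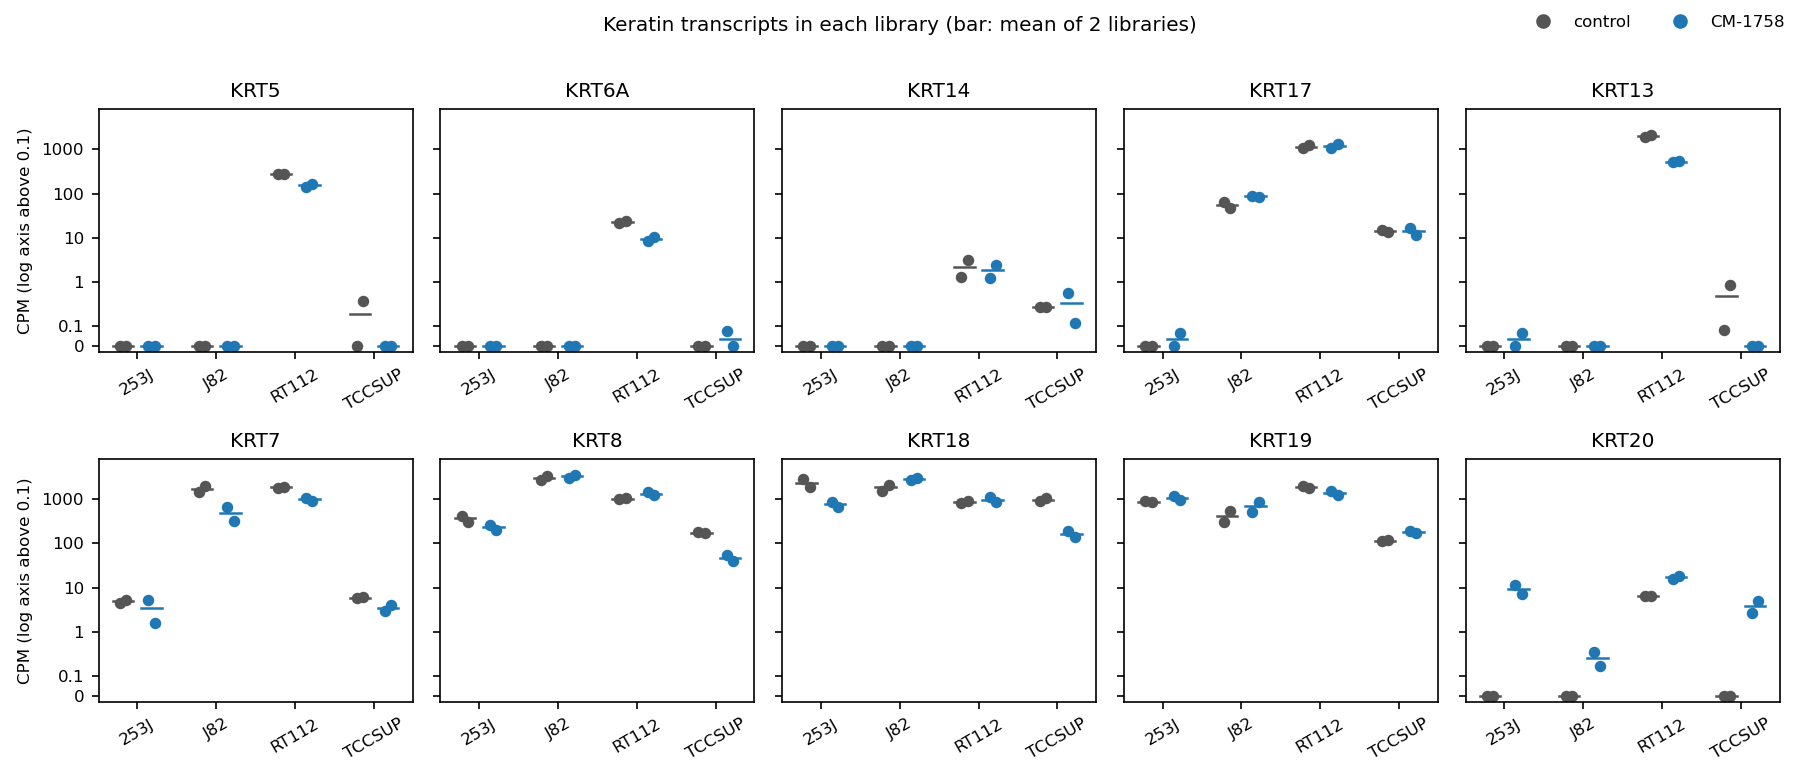
CPM of the 10 keratins in the 16 libraries, by cell line, for control (grey) and CM-1758 (blue), with a bar at the mean of the 2 libraries of a group, on a log axis above 0.1 that also shows 0. KRT5 and KRT6A sit above 1 CPM in RT112 alone, KRT8, KRT18 and KRT19 are counted in every library, and KRT20 rises from 0 in 253J, J82 and TCCSUP.

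Among basal keratins, KRT5 stood at 271 and 282 CPM in the RT112 control libraries and at 0 in all 4 control libraries of 253J and J82, which puts RT112 at least 2480-fold higher. KRT6A, a keratin of activated and squamous epithelium, was at 22.0 and 23.7 CPM in RT112 and at 0 in the control libraries of the other 3 lines. KRT14 was low wherever it was counted, at 1.28 and 3.12 CPM in RT112 and at 7 counts in each TCCSUP control library. The mean of KRT14 was 8.06-fold higher in RT112 than in TCCSUP, given as a description because KRT14 entered the test through RT112. Every adjusted p below is from the edgeR quasi-likelihood test with Benjamini-Hochberg adjustment unless DESeq2 is named.

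KRT17, a basal keratin also induced in injured epithelium, was counted in all lines but 253J in control. Its control level was 1066 and 1225 CPM in RT112, 65.0 and 48.0 CPM in J82, 15.2 and 13.9 CPM in TCCSUP and 0 in 253J. RT112 was 20.3-fold above J82 (edgeR adjusted p = 1.61e-09) and J82 3.89-fold above TCCSUP (edgeR adjusted p = 5e-06), so that each step in the order passed the test. KRT13 was at 1928 and 2062 CPM in the control libraries of RT112, at least 17800-fold above 253J, where it was at 0 as in J82. TCCSUP had 2 and 23 counts of KRT13.

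The simple keratins followed other orders. KRT7 was high in RT112 (1765 and 1926 CPM) and in J82 (1425 and 1991 CPM), and low in TCCSUP (5.74 and 6.17 CPM) and 253J (4.53 and 5.36 CPM). The ranges of RT112 and J82 overlapped, and their log2 difference of J82 minus RT112 was -0.11 (SE 0.35, edgeR adjusted p = 0.869). The difference of 253J minus TCCSUP was -0.27 (SE 0.41, edgeR adjusted p = 0.636), and J82 lay 287-fold above TCCSUP (edgeR adjusted p = 3.89e-09).

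KRT8, the type II partner of KRT18, was highest in J82, at 2654 and 3406 CPM. RT112 followed at 989 and 1073 CPM, then 253J at 427 and 304 CPM and TCCSUP at 179 and 169 CPM. Each neighbour in this order differed, by 2.94-fold, 2.82-fold and 2.1-fold (edgeR adjusted p of 1.96e-05, 2.73e-05 and 0.000601). KRT18 was highest in 253J, at 2796 and 1858 CPM, where it overlapped J82 at 1556 and 2134 CPM (log2 difference 0.33, SE 0.23, edgeR adjusted p = 0.242). TCCSUP at 900 and 1039 CPM and RT112 at 823 and 887 CPM did not differ either (edgeR adjusted p = 0.559).

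KRT19, a type I keratin that lacks the tail domain, was highest in RT112, at 1997 and 1820 CPM, followed by 253J at 913 and 841 CPM, J82 at 303 and 532 CPM and TCCSUP at 112 and 119 CPM. No ranges overlapped between lines. KRT20 was counted in RT112 alone among the control libraries, at 198 and 194 counts (6.47 and 6.57 CPM), at least 55.9-fold above each of the other lines.

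Counted over the members, 253J differed from J82 in 4 of 10, from RT112 in 10 and from TCCSUP in 7, against 53.1%, 54.3% and 53.1% of all tested genes. J82 differed from RT112 in 9 and from TCCSUP in 8, against 52.1% and 48.0%, and RT112 differed from TCCSUP in 9, all higher in RT112, against 51.5%. The counts against RT112 include KRT5, KRT6A, KRT13 and KRT14, which passed the filter through that line and so had to differ, and nothing is read from them against these shares. The counts of 253J and J82 against TCCSUP include KRT5, KRT13 and KRT14, at 0 in 253J and J82 control. In the TCCSUP control libraries these had 0 and 10, 2 and 23, and 7 and 7 counts. Nothing is read from the counts against TCCSUP either. The pairs also share their control libraries. In 253J against J82, 5 members were at or under the floor in each group.

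Per kilobase of transcript, which allows levels of different genes to be compared, a different keratin led in most lines. KRT18 made up 77.7% ± 1.74 (SD, n = 2) of the summed level of the 10 members in TCCSUP control and 64.4% ± 4.43 (SD, n = 2) in 253J control. KRT8 led in J82 control with 36.6% ± 1.55 (SD, n = 2), or 41.0% when coding length was used, and KRT19 led in RT112 control with 25.2% ± 2.39 (SD, n = 2). The 4 basal keratins together took 14.3% and 15.6% of the sum in RT112 control and at most 1.24% in any control library of the other lines, and KRT13 alone took 21.3% and 21.8% in RT112 control.

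**Figure D2:**
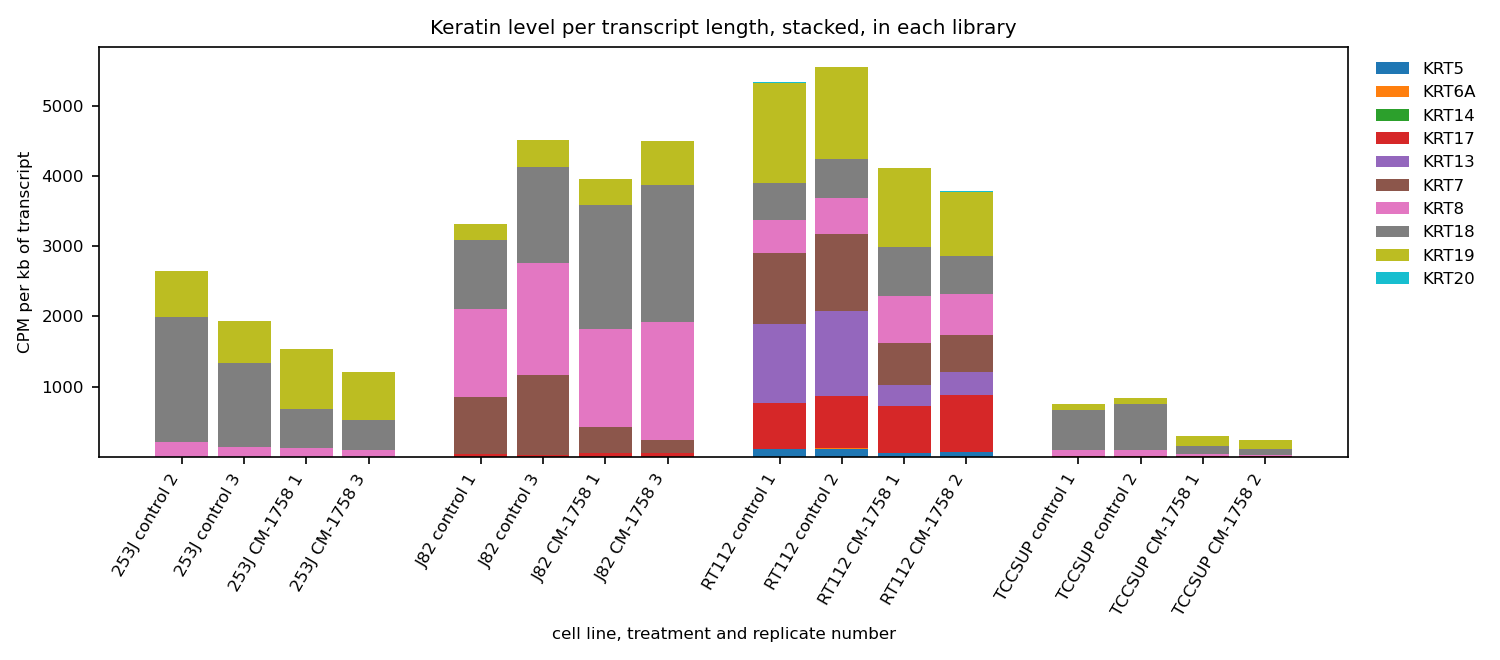
Stacked level of the 10 keratins in CPM per kilobase of transcript, 1 bar per library, ordered by cell line, treatment and replicate number. The TCCSUP bars drop from 754 and 843 in control to 299 and 241 with CM-1758, and the KRT13 band of RT112 shrinks from 21.3% and 21.8% of the bar to 7.22% and 8.61%.

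With CM-1758, KRT20 rose in all 4 lines, and the other members that passed were not the same in every line. In 253J, 1 member rose (KRT20) and 2 fell (KRT8 and KRT18), where 28.8% and 22.4% of all tested genes rose and fell. In J82, 4 rose (KRT17, KRT18, KRT19 and KRT20) and 1 fell (KRT7), against 24.0% and 18.5%. In RT112, 1 rose (KRT20) and 4 fell (KRT5, KRT6A, KRT13 and KRT7), against 27.4% and 20.2%, and in TCCSUP 2 rose (KRT19 and KRT20) and 4 fell (KRT5, KRT13, KRT8 and KRT18), against 32.0% and 22.1%. Of the members that did not pass, 5 in 253J, 4 in J82 and 1 in TCCSUP were at or under the floor in each group.

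Over the members above the floor, the log2 fold change had a median of -0.52 (253J), 0.64 (J82), -0.345 (RT112) and -0.79 (TCCSUP), beside 0.1, 0.0473, 0.119 and 0.2 over all tested genes. Scaling by library size alone moved the median of all tested genes by 0.272, 0.145, 0.148 and 0.311 in the same order.

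Among the basal keratins, KRT5 fell in RT112 from 271 and 282 CPM to 142 and 163 CPM, with no overlap between groups. The log2 fold change was -0.86 (SE 0.25, edgeR adjusted p = 0.0172). The call was lost when control replicate 1, control replicate 2 or CM-1758 replicate 1 of RT112 was left out (edgeR adjusted p from 0.0586 to 0.101) and with DESeq2 over all lines (adjusted p = 0.967). In TCCSUP the call of KRT5 rests on 10 counts in 1 control library, against 0 in the other control library and in the treated libraries, and without that library the value was 0.

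KRT6A fell in RT112 from 22.0 and 23.7 CPM to 8.37 and 10.6 CPM, a log2 fold change of -1.27 (SE 0.31, edgeR adjusted p = 0.00709). The groups did not overlap, and the adjusted p was 0.0595 without CM-1758 replicate 1. Of the 100-base windows in the KRT6A transcript, 17.6% also occur in KRT6C, so that reads of these genes may be exchanged. KRT6C itself went from 40 and 35 counts to 0 and 0 in RT112, at least 10.8-fold lower (edgeR adjusted p = 0.00244), and KRT6B from 19 and 16 counts to 0 and 7 (edgeR adjusted p = 0.176).

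KRT14 and KRT17 did not pass in RT112, and their change was not tested against that of KRT5 or KRT6A. KRT14 was at 1.28 and 3.12 CPM in control and at 1.21 and 2.48 CPM with CM-1758, overlapping (log2 fold change -0.25, SE 0.64, edgeR adjusted p = 0.802), and leaving out 1 library moved its log2 fold change between -0.86 and 0.53. KRT17 stood at 1066 and 1225 CPM in control and at 1096 and 1338 CPM with CM-1758 (log2 fold change 0.09, SE 0.20, edgeR adjusted p = 0.773). Together the basal keratins took 17.6% and 23.3% of the summed level per kilobase in treated RT112, above 14.3% and 15.6% in control. Their own summed level overlapped, at 763 and 866 CPM per kilobase in control and 724 and 880 with CM-1758, while that of all 10 members was lower with CM-1758.

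In J82, KRT17 rose from 65.0 and 48.0 CPM to 90.0 and 83.3 CPM, a 1.53-fold change (log2 0.62, SE 0.21, edgeR adjusted p = 0.0274). The groups did not overlap. The call was lost without J82 control replicate 3, CM-1758 replicate 1 or CM-1758 replicate 3 (edgeR adjusted p from 0.0531 to 0.189). In TCCSUP, KRT17 stayed between 11.6 and 17 CPM in all 4 libraries.

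KRT13, which pairs with KRT4 in the upper layers of mucosal epithelium, had the largest fall in RT112 among the members. It went from 1928 and 2062 CPM to 505 and 553 CPM, 3.77-fold lower (log2 fold change -1.91, SE 0.30, edgeR adjusted p = 0.000364). The groups lay far apart, and the call was lost in 1 of 24 alternatives, DESeq2 over all lines (adjusted p = 0.562). KRT4, picked after its values were seen, fell in the same line from 201 and 210 CPM to 61.4 and 68.5 CPM (log2 fold change -1.66, SE 0.25, edgeR adjusted p = 0.000161). In TCCSUP, KRT13 went from 2 and 23 counts to 0 and 0, at least 4.17-fold lower (edgeR adjusted p = 0.00865). Both the bound and the call rest on the 23 counts of control replicate 2. Without it the other control library has 2 counts, under the floor, so that no fold is left, and the edgeR adjusted p was 0.09.

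KRT7, the type II keratin of ductal and transitional epithelium, fell in J82 and RT112, and the test of a difference between lines did not pass (edgeR adjusted p = 0.182). Its level in J82 was 1425 and 1991 CPM in control and 649 and 321 CPM with CM-1758, 3.52-fold lower (log2 fold change -1.82, SE 0.36, edgeR adjusted p = 0.000881), with no overlap and the call kept in all 25 alternatives. In RT112 it went from 1765 and 1926 CPM to 1050 and 921 CPM (log2 fold change -0.91, SE 0.35, edgeR adjusted p = 0.0457), also without overlap. That adjusted p rose over the threshold in 14 of 25 alternatives, among them leaving out either control library of 253J or any library of RT112 or TCCSUP (0.0556 to 0.184), library size alone (0.0955) and RLE size factors (0.0662). KRT7 in TCCSUP was at 5.74 and 6.17 CPM in control and at 2.92 and 3.97 CPM with CM-1758 (log2 fold change -0.79, SE 0.43, edgeR adjusted p = 0.132). It passed there with TCCSUP fitted alone (adjusted p of 0.0166 in edgeR and 0.0414 in DESeq2). In 253J the groups overlapped.

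KRT7-AS, an antisense gene that lies within KRT7 on chromosome 12, had 123 and 91 counts in J82 control and 73 and 36 with CM-1758. Its counts are small beside the 37511 and 54775 of KRT7 in those control libraries. Whether the counting used strand is not given in the sources used here.

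KRT8 and KRT18 fell together in 253J and TCCSUP. In TCCSUP, KRT8 went from 179 and 169 CPM to 55.3 and 39.2 CPM (log2 fold change -1.88, SE 0.22, edgeR adjusted p = 5.94e-06), and KRT18 from 900 and 1039 CPM to 188 and 138 CPM (log2 fold change -2.57, SE 0.24, edgeR adjusted p = 7.95e-07). No library of one group reached the range of the other, and both calls were kept in all 25 alternatives. In 253J, KRT18 went from 2796 and 1858 CPM to 866 and 667 CPM (log2 fold change -1.60, SE 0.24, edgeR adjusted p = 4.51e-05, kept in all 25 alternatives). KRT8 in 253J went from 427 and 304 CPM to 267 and 204 CPM (log2 fold change -0.63, SE 0.21, edgeR adjusted p = 0.0213). The KRT8 call in 253J was lost without control replicate 2 (edgeR adjusted p = 0.25), without CM-1758 replicate 3 (0.182) and with library size alone (0.149).

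In J82 and RT112 neither gene passed as lower. KRT18 in J82 was at 1556 and 2134 CPM in control and at 2753 and 3059 CPM with CM-1758, without overlap (log2 fold change 0.66, SE 0.23, edgeR adjusted p = 0.0322). That call was lost without control replicate 1 (edgeR adjusted p = 0.209) or CM-1758 replicate 3 (0.128). KRT8 in J82 overlapped between groups, at 2654 and 3406 CPM against 2984 and 3583 CPM (log2 fold change 0.12, SE 0.21, edgeR adjusted p = 0.72). In RT112, KRT8 was at 989 and 1073 CPM in control and at 1421 and 1249 CPM with CM-1758 (log2 fold change 0.37, SE 0.21, edgeR adjusted p = 0.162), and its adjusted p was 0.0456 with library size alone, while KRT18 overlapped at 823 and 887 against 1103 and 844 CPM.

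The change of KRT8 and of KRT18 differed between lines (F test of 3 interaction contrasts in edgeR, adjusted p = 9.84e-05 and 4.73e-06). The same test passed for KRT20 (edgeR adjusted p = 4.34e-05) and KRT19 (0.0416), which makes 4 of 10 members, against 51.9% of all tested genes. For the other 6 members the adjusted p of this edgeR test ran from 0.163 to 1. With the replicate number as a block, KRT13 (edgeR adjusted p = 0.0173) and KRT17 (0.0342) also passed, which makes 6 members. Pairs of lines were not tested singly.

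KRT8 and KRT18 have many processed pseudogenes. In TCCSUP the 49 genes named KRT8P summed to 18.9 and 19.6 CPM in control and to 20.1 and 24.2 CPM with CM-1758, which is 10.6% and 11.6% of the KRT8 level in control and 36.4% and 61.6% in the treated libraries. The 66 genes named KRT18P summed to 7.62 and 8.23 CPM in TCCSUP control and to 14.5 and 18.8 CPM with CM-1758, up to 13.6% of KRT18. In J82 the KRT8P sum stayed under 1% of KRT8, at 0.892% in the library where it was highest. In the KRT8 transcript, 5.92% of 100-base windows also occur in another gene, and the part of shared reads in the values was not tested. The RefSeq spans of KRT8 and KRT18 on chromosome 12 overlap by 1006 bases on GRCh38.p14.

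KRT19 rose in J82 and TCCSUP. In TCCSUP it went from 112 and 119 CPM to 194 and 169 CPM (log2 fold change 0.65, SE 0.25, edgeR adjusted p = 0.0422), with no overlap. This call was lost in 8 of 25 alternatives, each leaving out 1 library, either control library of 253J or RT112 or any library of TCCSUP (edgeR adjusted p from 0.052 to 0.18). In J82 KRT19 was higher with CM-1758 than in control at replicate number 1 and at replicate number 3. It was at 303 and 532 CPM in control and at 518 and 866 CPM with CM-1758 (log2 fold change 0.73, SE 0.25, edgeR adjusted p = 0.0305). Those groups overlapped, and the adjusted p was 0.266 without control replicate 1 and 0.41 without CM-1758 replicate 3. In 253J (913 and 841 against 1180 and 948 CPM) and RT112 (1997 and 1820 against 1550 and 1269 CPM) KRT19 did not pass (edgeR adjusted p of 0.384 and 0.169), although neither pair of groups overlapped.

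KRT20, the umbrella cell keratin whose upstream bases are shown above, had 0 counts in the control libraries of 253J, J82 and TCCSUP. With CM-1758 it had 296 and 212 counts in 253J, at least 84.5-fold higher (edgeR adjusted p = 6.84e-07), and 72 and 129 counts in TCCSUP, at least 33.3-fold higher (edgeR adjusted p = 4.21e-06). J82 gained 10 and 5 counts, at least 2.36-fold higher (edgeR adjusted p = 0.00752). In RT112 the level went from 6.47 and 6.57 CPM to 16 and 18.6 CPM, 2.66-fold higher (log2 fold change 1.41, SE 0.34, edgeR adjusted p = 0.0052). No groups overlapped in any line, and in none did an alternative that tested KRT20 lose the call. The treated levels remained low, between 0.169 and 18.6 CPM.

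The other luminal markers did not all move with KRT20. Of 10 luminal urothelial marker genes outside the keratins, 2 rose and 2 fell in 253J, 3 rose and 1 fell in J82, 1 rose and 4 fell in RT112 and 3 rose and 4 fell in TCCSUP. Their summed level went from 2028 and 2263 CPM to 1043 and 1049 CPM in RT112, most of it UPK1B, which fell from 1298 and 1517 CPM to 345 and 359 CPM (edgeR adjusted p = 8.83e-05). GRHL3, a transcription factor of umbrella cells, rose there from 77 and 155 counts to 454 and 480 (edgeR adjusted p = 0.00125), and ELF3 and GATA3 did not pass (edgeR adjusted p of 0.0972 and 0.642). Beside the shares of all tested genes given above with the members, 3 of 6 basal urothelial markers rose and 1 fell in 253J, and 3 rose in J82. In RT112 1 rose, and in TCCSUP 3 rose and 3 fell. The part of these markers in the keratin values was not tested. In J82 2 were at or under the floor in each group. Their summed level was lower with CM-1758 in 253J (1196 and 1290 to 468 and 609 CPM) and TCCSUP (1628 and 1632 to 644 and 792 CPM). It overlapped between groups in J82 and RT112. CD44 in 253J went from 967 and 861 CPM to 171 and 204 CPM.

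The ratio of type II to type I members per kilobase changed most in J82. The summed type II level (KRT5, KRT6A, KRT7 and KRT8) was 1.64 and 1.54 times the type I level in control and 0.81 and 0.71 times with CM-1758. In RT112 the ratio was 0.424 and 0.449 in control and 0.475 and 0.454 with CM-1758. In 253J it was 0.0831 and 0.0814 in control and 0.0912 and 0.087 with CM-1758. TCCSUP went from 0.131 and 0.109 to 0.102 and 0.0939. Keratins outside the members are not in these sums. Among them are the type II keratins KRT81, at 270 and 249 CPM in TCCSUP control, and KRT80, at 89.6 and 86.9 CPM there. For the KRT8 and KRT18 pair, the ratio went from 0.112 and 0.12 to 0.226 and 0.225 in 253J. It went from 0.146 and 0.119 to 0.217 and 0.208 in TCCSUP and from 0.883 and 0.889 to 0.946 and 1.09 in RT112. In J82 it went from 1.25 and 1.17 to 0.796 and 0.861. These ratios are descriptions of transcript levels and were not tested.

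**Figure D3:**
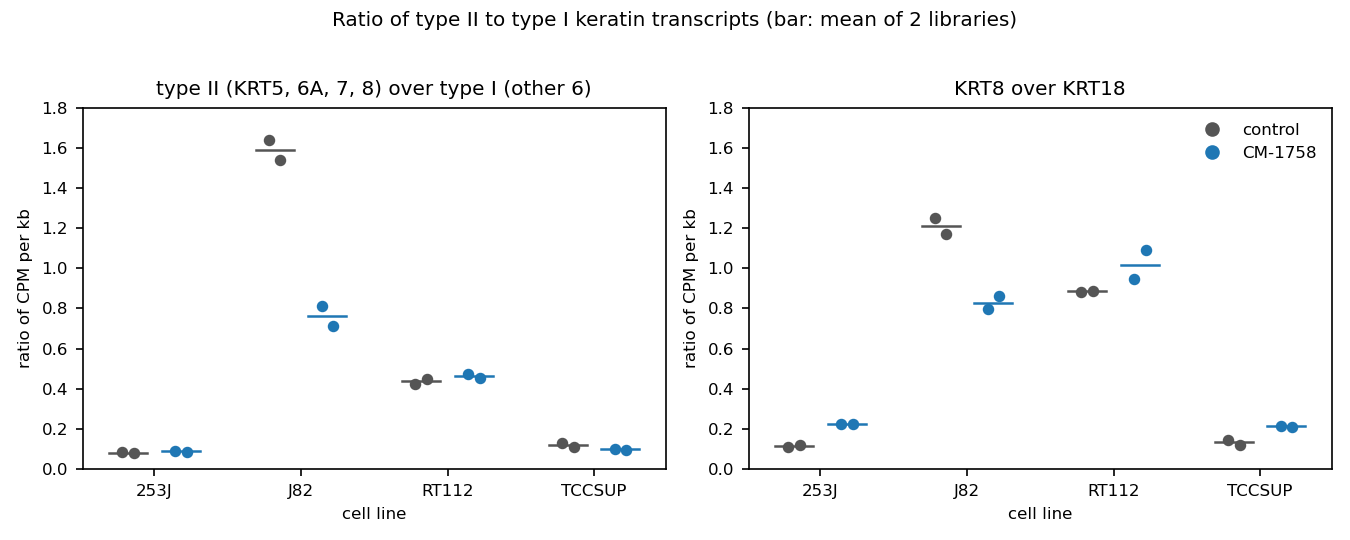
Ratio of summed type II to type I keratins (left) and of KRT8 to KRT18 (right), each in CPM per kilobase of transcript, per library, with a bar at the mean of the 2 libraries of a group. J82 drops from 1.64 and 1.54 to 0.81 and 0.71 on the left, and the KRT8 to KRT18 ratio in 253J moves from 0.112 and 0.12 to 0.226 and 0.225.

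The summed level of the 10 members per kilobase was lower with CM-1758 in 3 lines. It went from 754 and 843 to 299 and 241 in TCCSUP, from 2650 and 1940 to 1539 and 1210 in 253J and from 5337 and 5562 to 4119 and 3783 in RT112. In J82 the groups overlapped, at 3314 and 4516 against 3964 and 4500.

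Across the 16 libraries, the gene whose log2 CPM was most like that of KRT5 was KRT13, and the reverse also held (Pearson r = 0.998). For KRT6A it was KDF1 (r = 0.997), for KRT17 CHMP4C (0.995), for KRT14 ALDH3A1 (0.982), for KRT7 NHLRC1 (0.981) and for KRT20 FAR2P1 (0.979). For KRT19 it was MCCC1 (0.973), for KRT8 RNF144B (0.954) and for KRT18 GGH (0.907). The 16 libraries come from 4 lines with 4 libraries each, so these values mostly describe differences between lines.

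Among the other keratins, KRT15, a type I keratin of basal and progenitor cells of stratified epithelium, rose in all 4 lines. It went from 14.3 and 12.8 CPM to 48.4 and 43.6 CPM in 253J (log2 fold change 1.76, SE 0.17, edgeR adjusted p = 9.41e-07) and from 17.1 and 18.5 CPM to 48.7 and 51.6 CPM in RT112 (log2 fold change 1.49, SE 0.17, edgeR adjusted p = 5.96e-06). In J82 it went from 9 and 16 counts to 65 and 88 (log2 fold change 2.51, edgeR adjusted p = 4.92e-06) and in TCCSUP from 8 and 13 counts to 72 and 81 (log2 fold change 2.83, edgeR adjusted p = 1.18e-06). KRT15 thus rose in RT112, where KRT5 and KRT6A fell. KRT16, the type I keratin that pairs with KRT6A, fell in RT112 from 21.2 and 38.2 CPM to 11.8 and 17.5 CPM (log2 fold change -1.02, SE 0.39, edgeR adjusted p = 0.0466).

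Of 22 other type I keratins, 9 were tested, of which 6 rose in TCCSUP, 4 in RT112, 3 in J82 and 2 in 253J, and the single fall among these tests was KRT16 in RT112. At or under the floor in each group were 1 in TCCSUP, 1 in RT112, 2 in J82 and 3 in 253J. Of 22 other type II keratins, 15 were tested. Of these 2 rose and none fell in 253J, 3 rose and none fell in J82, 3 rose and 4 fell in RT112 and 2 rose and 2 fell in TCCSUP. Among the 15, 8 in J82 and 7 in 253J were at or under the floor in each group, against 5 in TCCSUP and 1 in RT112. A gene at or under the floor was counted as neither risen nor fallen. For both types, the shares of all tested genes are given above with the members. KRT81, a hair keratin, went from 270 and 249 CPM to 91.0 and 80.7 CPM in TCCSUP (log2 fold change -1.60, SE 0.57, edgeR adjusted p = 0.028). In RT112 it rose, from 13 and 29 counts to 175 and 101 (log2 fold change 2.92, SE 0.85, edgeR adjusted p = 0.0108).

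**Figure D4:**
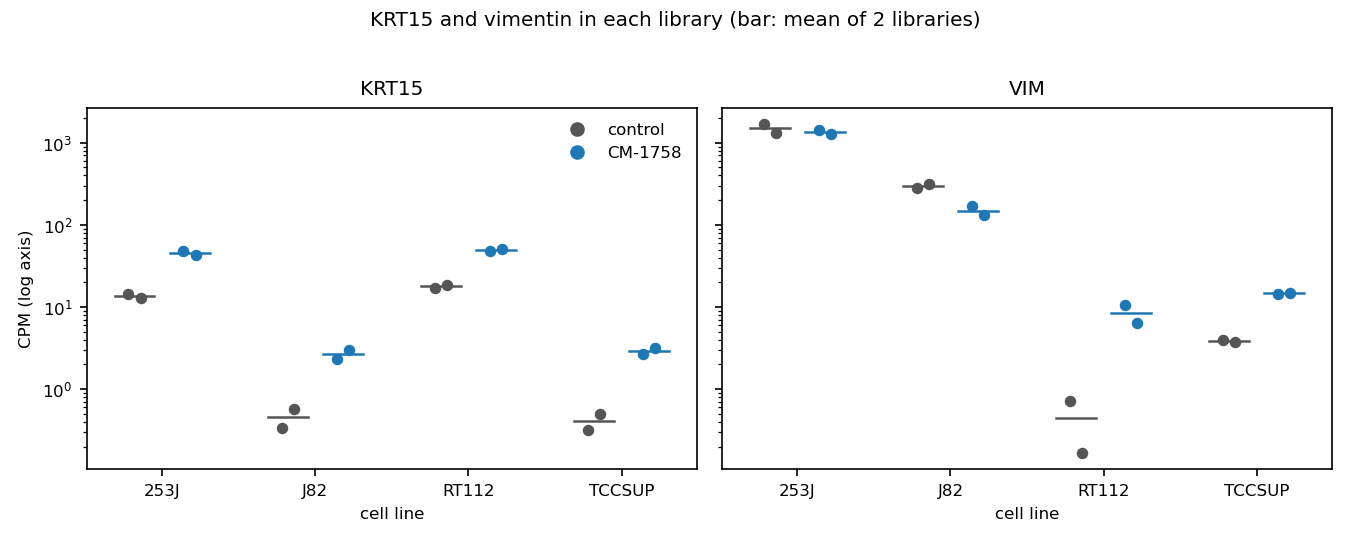
CPM of KRT15 (left) and of vimentin, VIM (right), in the 16 libraries on a log axis, with a bar at the mean of the 2 libraries of a group. KRT15 is higher with CM-1758 in every line, and VIM is higher in RT112 and TCCSUP and lower in J82.

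Vimentin, the intermediate filament of mesenchymal cells, changed in 3 lines. VIM went from 22 and 5 counts to 272 and 167 counts in RT112 (log2 fold change 4.23, SE 0.39, edgeR adjusted p = 8.05e-07) and from 3.96 and 3.75 CPM to 14.5 and 14.8 CPM in TCCSUP (log2 fold change 1.93, edgeR adjusted p = 6e-05). It fell in J82 from 279 and 314 CPM to 168 and 131 CPM (log2 fold change -0.98, edgeR adjusted p = 0.00511). In 253J it was at 1690 and 1307 CPM in control and at 1430 and 1286 CPM with CM-1758 (edgeR adjusted p = 0.683). Other mesenchymal markers did not all move with VIM. Of 7 with VIM among them, 1 rose and 2 fell in 253J and 2 rose and 2 fell in J82. In RT112 6 rose and 0 fell, and in TCCSUP 2 rose and 4 fell. The shares of all tested genes are given above with the members. The summed level of these 7 genes went from 4537 and 5361 to 1841 and 2228 CPM in TCCSUP. In J82 that sum went from 1852 and 2120 to 4078 and 4568 CPM. The largest part of these sums was FN1. It went from 4600 and 3870 to 1891 and 1528 CPM in TCCSUP and from 1201 and 885 to 3766 and 3455 CPM in J82.

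Of 11 intermediate filament genes outside the keratins that were tested, vimentin among them, 5 rose and 3 fell in 253J, 6 rose and 5 fell in J82, 7 rose and 2 fell in RT112 and 6 rose and 3 fell in TCCSUP. In 253J 1 was at or under the floor in each group, and the shares of all tested genes are given above with the members. NES, which encodes nestin of progenitor cells, rose in all 4 lines, from 24 and 25 counts to 1563 and 1391 counts in J82 (log2 fold change 5.82, edgeR adjusted p = 5.06e-09). NEFL, a neurofilament gene, also rose in all 4 lines, from 7 and 4 counts to 84 and 99 in RT112. INA, which encodes alpha-internexin, rose in RT112 from 19 and 30 counts to 468 and 582 and in J82 from 124 and 78 counts to 1431 and 2086. LMNB1, a nuclear lamin gene, fell in all 4 lines, from 193 and 153 CPM to 25.7 and 19.8 CPM in 253J (log2 fold change -2.93, edgeR adjusted p = 6.37e-08).

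Genes that attach keratin filaments to desmosomes and hemidesmosomes were measured beside them. Of 16, 4 rose and 5 fell in 253J, 6 rose and 3 fell in J82, 1 rose and 3 fell in RT112 and 5 rose and 4 fell in TCCSUP. At or under the floor in each group were 2 in 253J and 1 in J82, and the shares of all tested genes are given above with the members. PKP3, a desmosomal plakophilin, fell in all 4 lines, from 14.6 and 13.0 CPM to 2.06 and 2.24 CPM in TCCSUP (log2 fold change -2.68, edgeR adjusted p = 7.98e-07) and from 34.6 and 36.6 CPM to 6.84 and 4.98 CPM in J82. COL17A1, the hemidesmosomal collagen of basal cells, fell in RT112 from 207 and 184 CPM to 7 and 24.3 CPM (log2 fold change -3.64, SE 0.40, edgeR adjusted p = 4.7e-06). It rose in 253J, from 66 and 40 counts to 160 and 133 (log2 fold change 1.45, SE 0.47, edgeR adjusted p = 0.0172).

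The desmosomal cadherins DSC2 and DSC3 and periplakin PPL were at 0 in control in some lines. DSC2 in TCCSUP went from 0 in both control libraries to 34 and 39 counts, at least 12-fold higher (edgeR adjusted p = 1.65e-05), and DSC3 to 22 and 20 counts, at least 6.89-fold higher (edgeR adjusted p = 5.48e-05). PPL in 253J went from 0 to 27 and 69 counts, at least 15.2-fold higher (edgeR adjusted p = 7.62e-06). DSC3 was at 0 in all 4 libraries of 253J. DSC2 fell in 253J, from 15.8 and 16.8 CPM to 2.30 and 4.66 CPM (log2 fold change -2.22, edgeR adjusted p = 1.36e-05), and in J82 (log2 fold change -1.05, edgeR adjusted p = 0.00493). DSC3 fell in J82 (log2 fold change -0.83, edgeR adjusted p = 0.00225) and in RT112 (log2 fold change -1.30, edgeR adjusted p = 8.72e-05).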

How the data were processed

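The authors deposited 1 table of raw counts, whole numbers of reads per gene symbol. The submitters' processing notes name HISAT2, StringTie and GRCh37, with no role or version, and the counting tool and its use of strand are not given in the sources used here.

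Low genes were removed by filterByExpr (8 groups); the rest were normalized by TMM and fitted over all 16 libraries with the quasi-likelihood test of edgeR 4.0.16 in R 4.3.3, leaving 8 residual degrees of freedom. P-values were adjusted by Benjamini-Hochberg over all 21297 tested genes within each contrast, and an adjusted p under 0.05 was a call, with no fold limit. Groups hold only 2 libraries, and the spread is shared over genes and groups. The SE is the log2 fold change over the square root of F. CPM used TMM-normalized library sizes, and a fold against a group at 0 used 3 counts per library. Lengths and windows came from GENCODE 29 and promoters from RefSeq. The fit was tested on simulated data.

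The members and lists were chosen with earlier results of these data known. All members were named. Of the other keratins, filament attachment genes and other filaments, the 2 largest and 2 smallest called changes per line were named where mean log2 CPM was above 0, with KRT6B, KRT6C, KRT15, KRT16 and VIM always. Alternatives were RLE size factors, library size alone, small noncoding RNA genes left out, other filters, DESeq2 1.42.0, each line alone, a replicate block and leaving out each library.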

Additional observations from a re-analysis of the deposited data

Results flagged for a closer look

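The change with CM-1758 differed between the 4 cell lines for KRT8 (edgeR interaction F test, Benjamini-Hochberg adjusted p = 9.84e-05), KRT18 (4.73e-06), KRT19 (0.0416) and KRT20 (4.34e-05), which is what singled these members out. KRT18 fell in 253J and TCCSUP by 1.60 and 2.57 on the log2 scale and rose by 0.66 in J82. KRT8 fell in 253J and TCCSUP and passed the test in neither J82 nor RT112. The KRT20 test compares lines with 0 counts in control with RT112, which had 198 and 194. The interaction of KRT8 and KRT18 passed in all 23 alternatives that gave it and that of KRT20 in all 22. KRT19 passed in 12 of 23, and its edgeR adjusted p reached 0.168 when 1 library was left out.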

How the results depend on the processing

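Of the 19 called changes of the members, 8 kept their call in every alternative that tested them: KRT20 in all 4 lines, KRT18 and KRT8 in TCCSUP, KRT18 in 253J and KRT7 in J82. With at least 10 counts in every library, which drops by construction the members at 0 in a line, 2 members rose in J82, 1 in TCCSUP and 0 in 253J and RT112, 0 fell in RT112 and 2 in TCCSUP, and 4 differed between control lines. With library size alone, 1 fell in 253J and 2 rose in RT112 (KRT8 added). With each line fitted alone, 0 (edgeR) and 2 (DESeq2) rose in J82, where neither tool tested KRT20. In these fits 2 rose in RT112 in either tool (KRT8 added), while KRT19 in RT112 (adjusted p of 0.022 and 0.00324) and KRT7 in TCCSUP (0.0166 and 0.0414) passed as lower in edgeR and DESeq2. DESeq2 over all lines left 1 that fell in RT112 and 2 in TCCSUP, and the cause was not tested. Leaving out 1 library gave 1 to 3 members that fell in 253J, 1 to 4 that rose in J82, 1 to 4 that fell in RT112, 1 to 2 that rose and 2 to 4 that fell in TCCSUP, and 3 to 5 whose effect differed between lines. KRT5 in TCCSUP ran from -6.40 to 0.00 on the log2 scale, and it was 0.00 without TCCSUP control replicate 2, the library with its 10 counts.

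Same-numbered libraries had correlations of their deviations between 0.0173 and 0.218, and the numbers were not taken to pair the samples. The highest, 0.218, was in J82, and whether the numbers pair the libraries there was not tested. With the replicate block, 2 members rose in RT112 (KRT8 added, edgeR adjusted p = 0.0386), and KRT19 in RT112 (0.0087) and KRT7 in 253J (log2 fold change -1.72, 0.04) gained a call as lower. The block also took the members whose effect differed between lines from 4 to 6, with KRT13 (0.0173) and KRT17 (0.0342) added. It took the edgeR adjusted p of this test for KRT19 from 0.0416 to 0.000753.

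With 2 libraries per group, genes of few counts such as KRT14 and KRT5 in TCCSUP give no firm change, and p-values rest on the spread between these libraries.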
